A study of Homo sapiens with 8 samples.

Results

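The effect of adding EC359, a small-molecule inhibitor of the leukemia inhibitory factor receptor (LIFR), to the histone deacetylase (HDAC) inhibitor vorinostat was measured by RNA-seq in BT-549 cells, an established triple negative breast cancer (TNBC) line. The comparison set the 2 libraries from cells given EC359 at 100 nM with vorinostat at 10 µM against the 2 libraries from cells given vorinostat at 10 µM alone, after 24 h. These are 4 of the 8 libraries of the series. The other 4 came from cells given vehicle or EC359 at 100 nM alone, and they served to ask where the effect of EC359 differed once HDACs were inhibited. All 8 libraries are of the same line, and the labels do not say that the libraries of a group came from separate cultures, so p-values measure the spread between these libraries, which may be technical. Of 23228 genes listed, 13694 passed the filter on low counts and were tested.

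LIFR pairs with gp130, encoded by IL6ST, and binds LIF and related cytokines. Its associated JAK kinases phosphorylate STAT3, and the same receptor can also feed the RAS-ERK and PI3K-AKT routes. SOCS proteins are induced by STATs and switch the receptor off. HDAC inhibitors such as vorinostat keep acetyl groups on histones and other proteins, and change the transcription of many genes at once. ERK activity induces its own brakes, the DUSP phosphatases and the SPRY and SPRED proteins, together with the FOS, EGR and ETV transcription factors.

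The vorinostat and combination libraries held between 19069450 and 23060018 counts on genes. They differed in the number of genes with a count, which was 16506 and 16592 with vorinostat and 15493 and 16048 with the combination, and in the share of uniquely aligned reads outside annotated genes, which was 12.3% and 12.6% against 13.6% and 14.2%. The part of these differences in the results was not tested. The 8 mesenchymal markers of the line were all detected, with VIM at 4965 and 4888 CPM (counts scaled to library size) in the vorinostat libraries. Of the leukocyte markers, PTPRC, CD14 and CD68 passed the filter on low counts and were tested, and CD3E and ITGAM did not pass it. PTPRC, which encodes CD45, lay at 0.411 and 0.595 CPM with vorinostat and 0 CPM in both combination libraries, and CD14 at 0.566 and 0.638 CPM with vorinostat and 2.15 and 1.69 CPM with the combination (adjusted p = 0.0311). CD68, called higher, is given with the chemokines. The 9 luminal epithelial markers tested summed to 27.5 to 39.5 CPM with vorinostat and 19.6 to 43.5 CPM with the combination, ranges that overlap. Within the combination, KRT8 lay at 1.33 and 9.19 CPM and EPCAM at 0.461 and 3.57 CPM, higher in the second library. ESR1 at 1.02 and 0.562 CPM and FOXA1 at 1.54 and 1.48 CPM were not. Within vorinostat, KRT8 lay at 9.67 and 4.68 CPM and EPCAM at 4.27 and 2.13 CPM, so libraries of both groups differed in these transcripts.

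Adding EC359 to vorinostat changed genes mostly upward. In bulk RNA a change per cell and a change in the share of cells with a transcript cannot be told apart. A gene was called when its adjusted p was under 0.01 and its log2 fold change beyond 1 in either direction (edgeR's quasi-likelihood test). The calls numbered 582 (4.25% of 13694 genes), of which 462 (3.37%) lay above vorinostat in the combination and 120 (0.876%) below it, so that 79.4% of the calls were higher. The higher share was 67.6% with total-count normalization and 94.8% with scaling to the ribosomal protein genes, which moved the median log2 fold change of all genes from -0.01 to 0.16. By adjusted p alone the counts were 1157 higher (8.45%) and 720 lower (5.26%). The rises were also larger than the falls. Of the genes called higher, 114 exceeded 2 and 43 exceeded 3 on the log2 scale, against 7 and 3 of those called lower. The median log2 fold change was 1.44 for the higher and -1.18 for the lower genes. Leaving out vorinostat replicate 1 or 2 left 285 or 300 calls, and leaving out combination replicate 1 or 2 left 340 or 375, and none of the 582 genes changed sign.

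**Figure D1:**
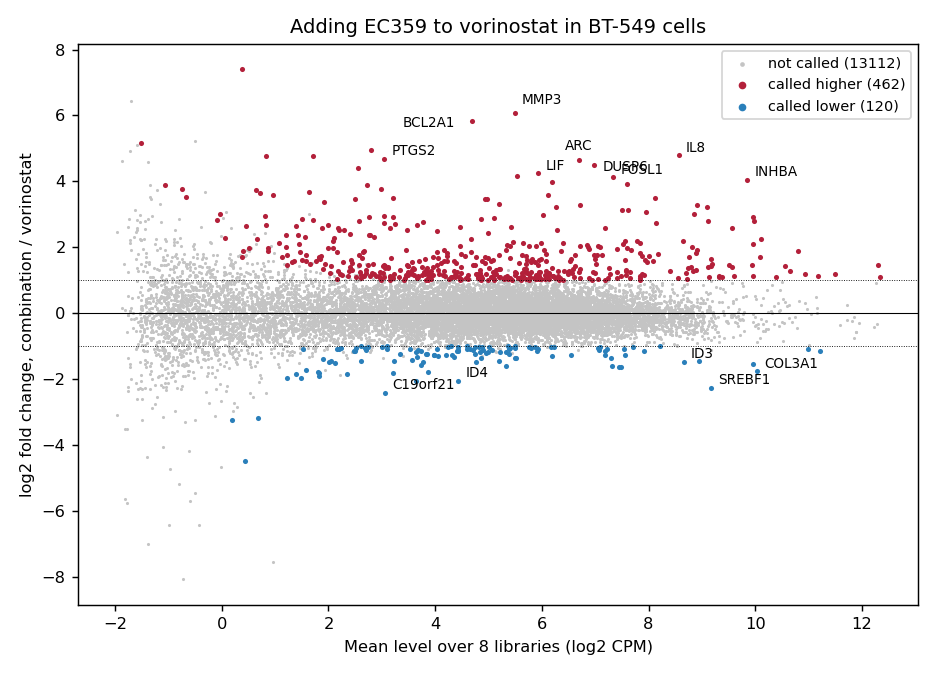
Each point is a tested gene, placed by its mean level over the 8 libraries (log2 CPM, horizontal) and its log2 fold change between combination and vorinostat (vertical). The 462 genes called higher (red) reach further from 0 than most of the 120 called lower (blue), at levels from rare to abundant, and dotted lines mark the fold threshold.

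Among genes with a mean log2 CPM of at least 3, those with the largest rises encode secreted proteases and cytokines, a survival protein and early response regulators. MMP3, encoding the matrix protease stromelysin 1, lay at 1.9 and 2.34 CPM with vorinostat and 146 and 145 CPM with the combination (log2 fold change 6.09 ± 0.18 (SE), adjusted p = 1.60e-07). BCL2A1, an inhibitor of apoptosis of the BCL2 family, lay at 1.39 and 1.66 CPM with vorinostat and 90 and 84.4 CPM with the combination (log2 fold change 5.82 ± 0.17 (SE), adjusted p = 1.60e-07). IL8 (CXCL8), the neutrophil chemokine, lay at 38.5 and 39.8 CPM with vorinostat and 1137 and 1039 CPM with the combination (log2 fold change 4.80 ± 0.10 (SE), adjusted p = 5.12e-08). In these 3 genes the combination libraries stood close to each other and far above both vorinostat libraries. The latter followed from choosing genes by the size of their rise and without overlap. INHBA, which encodes the activin A subunit, was the most abundant of the leading genes, at 179.7 and 189 CPM with vorinostat and 2946 and 3142 CPM with the combination (log2 fold change 4.04 ± 0.15 (SE), adjusted p = 5.43e-07). HAS3, a hyaluronan synthase, lay at 26 and 25.3 CPM with vorinostat and 411 and 373 CPM with the combination (log2 fold change 3.93 ± 0.10 (SE), adjusted p = 1.30e-07). SBSN, encoding the secreted epidermal protein suprabasin, lay at 2.73 and 2.76 CPM with vorinostat and 30.8 and 30.7 CPM with the combination (log2 fold change 3.48 ± 0.18 (SE), adjusted p = 3.25e-06). All 15 genes kept their call when any library was left out.

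**Figure D2:**
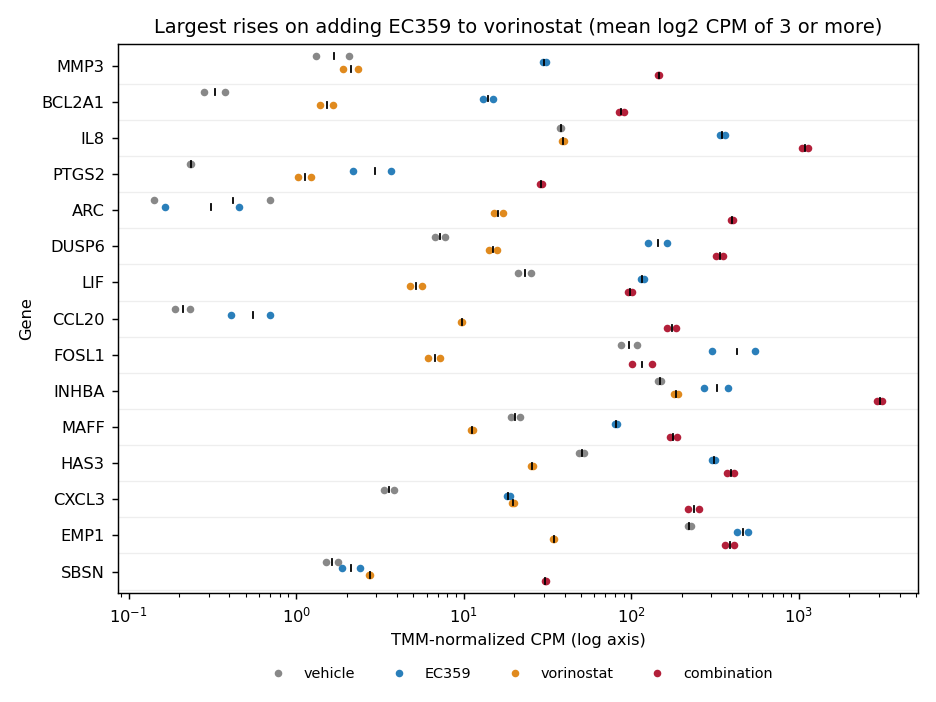
TMM-normalized CPM (log axis) of the 15 called genes that rose most, among those with a mean log2 CPM of at least 3. Points are the 2 libraries of each group and black ticks the group means. Both combination libraries (red) lie above both vorinostat libraries (orange) for every gene, which the choice of genes required. EC359 alone (blue) lies above vehicle (grey) for most of them and not for ARC.

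Levels in the other groups differed among these genes. FOSL1 lay at 108 and 87.2 CPM with vehicle, 7.25 and 6.16 CPM with vorinostat and 101 and 133 CPM with the combination, so the combination libraries were near the vehicle level. EMP1, an epithelial membrane protein, lay at 226 and 218 CPM with vehicle, 34.5 and 34.4 CPM with vorinostat and 412 and 365 CPM with the combination. ARC, known as an immediate early gene of neurons, was rare with vehicle at 0.142 and 0.701 CPM and with EC359 at 0.165 and 0.457 CPM. It lay at 15.1 and 17.1 CPM with vorinostat and 406 and 395 CPM with the combination. FOSL1 and EMP1 were thus lowest in the vorinostat libraries, whereas ARC was rare without vorinostat and highest in the combination libraries.

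Promoters are shown for leading higher genes, and for DDIT3 of the integrated stress response list, that hold a short motif. The motifs were AP-1 (TGACTCA), STAT (TTCNNNGAA), CRE (TGACGTCA), E-box (CACGTG) and ATF4 and C/EBP (TGATGCAA). They were searched on both strands from 250 bases before to 50 bases after the RefSeq start. None of these motifs contains another. The capitals mark the matches, and the sequences are from RefSeq with coordinates of GRCh38.p14. IL8 and SBSN hold AP-1 matches, EMP1 holds an AP-1 match and STAT matches, BCL2A1 holds a STAT and an ATF4 and C/EBP match, MAFF holds CRE, E-box and STAT matches, and DDIT3 holds an AP-1 match. HAS3, a leading higher gene with an E-box match, is not shown. Nor is ATF5, a stress response gene called lower, which holds an AP-1 match.
IL8 (CXCL8), chr4:73740319-73740618, plus strand: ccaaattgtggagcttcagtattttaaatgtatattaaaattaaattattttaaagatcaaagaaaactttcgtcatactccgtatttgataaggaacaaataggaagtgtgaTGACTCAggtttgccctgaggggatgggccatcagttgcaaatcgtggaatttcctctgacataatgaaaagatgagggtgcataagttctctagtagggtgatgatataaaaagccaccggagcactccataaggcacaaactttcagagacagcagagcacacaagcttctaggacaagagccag
EMP1, chr12:13196476-13196775, plus strand: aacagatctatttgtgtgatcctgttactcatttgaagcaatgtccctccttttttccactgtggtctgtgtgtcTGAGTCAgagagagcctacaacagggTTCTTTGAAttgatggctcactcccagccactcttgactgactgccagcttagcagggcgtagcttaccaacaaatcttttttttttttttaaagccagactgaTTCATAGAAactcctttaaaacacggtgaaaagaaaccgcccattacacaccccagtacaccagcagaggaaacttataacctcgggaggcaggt
SBSN, chr19:35528262-35528561, minus strand: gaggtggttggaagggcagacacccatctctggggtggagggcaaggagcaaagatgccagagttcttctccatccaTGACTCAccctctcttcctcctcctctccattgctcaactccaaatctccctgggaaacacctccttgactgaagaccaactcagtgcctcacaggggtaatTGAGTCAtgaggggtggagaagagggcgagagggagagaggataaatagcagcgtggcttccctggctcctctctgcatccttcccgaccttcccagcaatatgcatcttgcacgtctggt
BCL2A1, chr15:79971147-79971446, minus strand: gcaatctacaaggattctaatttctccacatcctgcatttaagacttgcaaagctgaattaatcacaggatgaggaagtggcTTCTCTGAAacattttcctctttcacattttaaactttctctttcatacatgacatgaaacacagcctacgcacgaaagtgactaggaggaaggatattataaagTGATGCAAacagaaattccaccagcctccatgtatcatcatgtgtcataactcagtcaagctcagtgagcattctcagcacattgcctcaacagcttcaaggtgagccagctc
MAFF, chr22:38201744-38202043, plus strand: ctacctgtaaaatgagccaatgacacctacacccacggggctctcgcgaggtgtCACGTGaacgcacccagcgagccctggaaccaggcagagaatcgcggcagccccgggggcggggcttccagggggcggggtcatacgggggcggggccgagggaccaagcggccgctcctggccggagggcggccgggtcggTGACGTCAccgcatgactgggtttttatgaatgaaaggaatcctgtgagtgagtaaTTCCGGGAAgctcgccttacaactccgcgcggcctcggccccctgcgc
DDIT3, chr12:57520465-57520764, minus strand: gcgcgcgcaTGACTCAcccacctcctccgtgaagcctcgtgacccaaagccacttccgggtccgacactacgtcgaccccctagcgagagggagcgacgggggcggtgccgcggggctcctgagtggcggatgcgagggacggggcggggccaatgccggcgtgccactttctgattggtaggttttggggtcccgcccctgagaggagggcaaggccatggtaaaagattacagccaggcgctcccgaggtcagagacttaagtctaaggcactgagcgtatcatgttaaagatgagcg

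Of the 15 leading higher genes 11 had a promoter in the RefSeq table, and 6 of those held any of the motifs. Of the 15 leading lower genes 11 had one, and 3 held a motif, PDE7B, CDKN2C and ID3. Among the 339 higher genes with a promoter, 7.67% held the AP-1 motif, against 2.97% of the 10559 promoters of tested genes and 4.95% of all 35116 promoters of the table, and 4.49% of the 89 lower genes held it. The CRE motif was in 5.01% of the higher, 1.12% of the lower and 3.25% of tested genes, and the ATF4 and C/EBP motif in 2.06%, 0 and 0.474%. The STAT motif was in 10.3% of higher and 10.1% of lower genes, against 6.46% of tested genes. The E-box was in 10.9% of higher and 10.1% of lower genes, against 9.98%. These shares describe letters in a short window, and a motif here is no shown site of binding.

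Most of the listed feedback genes of the ERK pathway rose. Of 20 tested members 13 (65%) were called higher, against 3.37% of all tested genes, with a median log2 fold change of 1.60 (1.46 to 1.77 over the alternatives) against -0.01 for all tested genes. DUSP6, the cytosolic ERK phosphatase, lay at 14.1 and 15.8 CPM with vorinostat and 322 and 352 CPM with the combination (log2 fold change 4.49 ± 0.16 (SE), adjusted p = 3.29e-07). SPRY4, an inhibitor of receptor signalling to RAS, lay at 2.57 and 3.06 CPM with vorinostat and 28.7 and 33.5 CPM with the combination (log2 fold change 3.45 ± 0.21 (SE), adjusted p = 9.46e-06). ETV5, an ETS transcription factor, lay at 15.7 and 15 CPM with vorinostat and 126 and 117 CPM with the combination (log2 fold change 2.99 ± 0.10 (SE), adjusted p = 2.65e-07). The groups did not overlap for any of these genes, as was the case for 72.9% of all tested genes. The remaining called members, named after their values were seen, were IL8, DUSP4, DUSP5, DUSP8, SPRY1, SPRY2, SPRED2, ETV1, ETV4 and PHLDA1. Genes for 2 ligands of the EGF receptor family also rose. NRG1, the ligand of ERBB3 and ERBB4, lay at 42.4 and 37.7 CPM with vorinostat and 167 and 195 CPM with the combination (log2 fold change 2.18 ± 0.16 (SE), adjusted p = 2.66e-05), and HBEGF, which binds EGFR, at 18.9 and 19.6 CPM with vorinostat and 59.6 and 62.4 CPM with the combination (log2 fold change 1.66 ± 0.11 (SE), adjusted p = 2.21e-05). They were the 2 called of 9 tested members of that list, whose median was 0.19.

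AP-1 subunits and other immediate early genes, which are switched on within minutes of growth factor or stress signals, were among the genes that rose. Of 29 tested members 16 (55.2%) were called higher, against 3.37% of all tested genes, and the median log2 fold change was 1.11 (1.02 to 1.28 over the alternatives). FOSL1, encoding the FOS family member FRA1, rose with log2 fold change 4.12 ± 0.30 (SE), adjusted p = 3.14e-05. MAFF, a small MAF factor, lay at 11.1 and 11.4 CPM with vorinostat and 169 and 187 CPM with the combination (log2 fold change 3.99 ± 0.11 (SE), adjusted p = 1.60e-07). EGR3, a zinc finger factor induced by ERK, lay at 1.54 and 2.68 CPM with vorinostat and 25.3 and 33.4 CPM with the combination (log2 fold change 3.77 ± 0.27 (SE), adjusted p = 2.64e-05). The other called members included, chosen after their values were seen, EGR1, FOSB, JUN, KLF4, KLF6 and IER3. In EC359 against vehicle 6 of the 29 were called higher, against 1.94% of all tested genes, with a median of 0.43.

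Chemokines and other genes known as NF-kB targets followed the same direction. Of 20 tested members 12 (60%) were called higher, against 3.37% of all tested genes, with a median of 1.23 (1.13 to 1.40 over the alternatives). PTGS2, the inducible cyclooxygenase of prostaglandin synthesis, lay at 1.23 and 1.02 CPM with vorinostat and 29.4 and 28.4 CPM with the combination (log2 fold change 4.68 ± 0.26 (SE), adjusted p = 6.66e-06). CCL20, the ligand of CCR6, lay at 9.82 and 9.65 CPM with vorinostat and 186 and 164 CPM with the combination (log2 fold change 4.17 ± 0.14 (SE), adjusted p = 2.65e-07). CXCL3, a chemokine for neutrophils, lay at 19.3 and 20 CPM with vorinostat and 253 and 219 CPM with the combination (log2 fold change 3.59 ± 0.12 (SE), adjusted p = 2.36e-07). IL8, CXCL1, CXCL2, CXCL3 and CXCL5, all called higher, lie in a stretch of chromosome 4 (74606236 to 74964913 on GRCh37, by GENCODE). Its ends were set by these called genes and it held no other tested gene, so it was no survey of the locus. CXCL1, CXCL2 and CXCL3 are close copies, so how reads were divided among them is uncertain. IL1B, encoding interleukin-1 beta, was rare, at 0.0514 and 0.255 CPM with vorinostat and 5.07 and 4.14 CPM with the combination, and its call was lost when any vorinostat or combination library was left out (adjusted p = 0.0109 to 0.0222). Beside the chemokines, 2 of the 3 tested leukocyte markers were higher in both combination libraries, CD14 near 0 and not past the threshold, as given above, and CD68, which was called. The part of leukocyte markers in the chemokine result was not tested. CD68, a lysosomal protein of macrophages that other cells also make, lay at 71.8 and 72.7 CPM with vorinostat and 222 and 267 CPM with the combination (adjusted p = 0.000664). The CD68 call was lost without vorinostat replicate 1 or 2 or combination replicate 2 (adjusted p = 0.0117 to 0.0137).

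Genes for matrix proteases and for an inhibitor of them rose. MMP1, MMP3, MMP10 and MMP13, which lie in a stretch of chromosome 11 (102641233 to 102826461 on GRCh37), were all called higher. The ends of the stretch were set by these called genes and it held no other tested gene, so it was no survey of the locus. The collagenase gene MMP1 lay at 12.6 and 13.4 CPM with vorinostat and 126 and 119 CPM with the combination (log2 fold change 3.23 ± 0.15 (SE), adjusted p = 2.13e-06). MMP13, another collagenase, lay at 3.09 and 3.44 CPM with vorinostat and 22.3 and 27.1 CPM with the combination (log2 fold change 2.91 ± 0.30 (SE), adjusted p = 0.000233). MMP10 rose from 1.13 and 1.74 CPM to 11.7 and 9.04 CPM, and its call was lost without combination replicate 1 or vorinostat replicate 1 (adjusted p = 0.0101 and 0.013). TIMP1, the inhibitor of these proteases, lay at 226 and 219.8 CPM with vorinostat and 1572 and 1507 CPM with the combination (log2 fold change 2.79 ± 0.084 (SE), adjusted p = 1.71e-07). Of 15 tested proteases and inhibitors 5 (33.3%) were called, all higher, against 3.37% of all tested genes, with a median of 0.64 (0.50 to 0.81 over the alternatives). The mesenchymal marker CD44, a hyaluronan receptor, lay at 775 and 763 CPM with vorinostat and 2028 and 2092 CPM with the combination (log2 fold change 1.42 ± 0.12 (SE), adjusted p = 8.35e-05), and fibronectin, encoded by FN1, at 1879 and 2039 CPM with vorinostat and 4384 and 4588 CPM with the combination (log2 fold change 1.20 ± 0.12 (SE), adjusted p = 0.000225). The 8 mesenchymal markers did not move together. Beside these 2, SPARC was called lower, with a log2 fold change of -1.08. The other 5 were not called, VIM at 0.93, ZEB1 at 0.74, CDH2 at 0.05, AXL at -0.33 and CAV1 at -0.47.

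Among 23 tested TGF-beta ligands, receptors and targets 6 (26.1%) were called higher, against 3.37% of all tested genes. The median was 0.38 (0.23 to 0.55 over the alternatives). INHBA led them. PMEPA1, a feedback inhibitor of the pathway, lay at 46.3 and 42.1 CPM with vorinostat and 128 and 131 CPM with the combination (log2 fold change 1.55 ± 0.13 (SE), adjusted p = 7.55e-05). LTBP2, a matrix protein, lay at 2.42 and 1.15 CPM with vorinostat and 5.99 and 6.79 CPM with the combination (adjusted p = 0.00403), a call lost without vorinostat replicate 2 or either combination library (adjusted p = 0.0278 to 0.0427).

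Within the targeted pathway, the ligands LIF and IL6 and the receptor chains IL6ST and OSMR rose. Of 12 tested members of the LIF and IL6 family 4 (33.3%) were called higher, against 3.37% of all tested genes, with a median of 0.34 (0.09 to 0.50 over the alternatives). LIF itself lay at 25.3 and 21.2 CPM with vehicle, 119 and 114 CPM with EC359, 5.61 and 4.8 CPM with vorinostat and 95.9 and 101 CPM with the combination (log2 fold change 4.24 ± 0.14 (SE), adjusted p = 2.36e-07 against vorinostat). LIF was thus lowest in the vorinostat libraries, and the combination libraries lay below the EC359 libraries. IL6 lay at 12.3 and 11.2 CPM with vorinostat and 114 and 120.4 CPM with the combination (log2 fold change 3.32 ± 0.12 (SE), adjusted p = 4.97e-07). IL6ST, the receptor chain that LIFR shares with the IL6 receptor, lay at 624 and 646 CPM with vorinostat and 1836 and 1669 CPM with the combination (log2 fold change 1.46 ± 0.11 (SE), adjusted p = 4.19e-05). OSMR, the receptor chain for oncostatin M, lay at 77.5 and 77.3 CPM with vorinostat and 247 and 225 CPM with the combination (log2 fold change 1.61 ± 0.11 (SE), adjusted p = 1.96e-05).

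LIFR lay at 80.3 and 81 CPM with vorinostat and 118 and 119.5 CPM with the combination, a difference that passed the adjusted p but not the fold threshold (log2 fold change 0.56 ± 0.12 (SE), adjusted p = 0.00821). The other ligands and receptors tested did not pass the test. IL6R lay at 4.42 and 3.95 CPM with vorinostat and 5.53 and 4.8 CPM with the combination (adjusted p = 0.31) and IL11RA at 53.5 and 55.3 CPM with vorinostat and 39.3 and 35.3 CPM with the combination (adjusted p = 0.0669). In both genes the groups did not overlap, yet the differences did not pass the test. CTF1, encoding cardiotrophin 1, lay at 2.37 and 1.91 CPM with vorinostat and 1.07 and 0.97 CPM with the combination (adjusted p = 0.0319). CNTFR, CLCF1 and IL11 were rare, with log2 fold changes of -0.01, -0.14 and 0.38 whose sign turned under 1 or more alternatives.

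Of 23 tested JAK, STAT and SOCS genes 2 (8.7%) were called higher, against 3.37% of all tested genes, and the median of the list was 0.07, with either sign over the alternatives. Among them CISH, a SOCS family inhibitor of cytokine receptors, lay at 2.01 and 2.25 CPM with vorinostat and 8.03 and 7.3 CPM with the combination (adjusted p = 0.00735), a call lost when any vehicle, vorinostat or combination library was left out (adjusted p = 0.0167 to 0.0861). SOCS3 and SOCS4 passed the adjusted p alone, with log2 fold changes of 0.64 and 0.47. The other 19 members did not pass the adjusted p, at -0.60 to 0.95, STAT3 at -0.22 and JAK1 at 0.14 among them. Genes known to be induced by STAT3 were called higher in 8 of 22 (36.4%), against 3.37% of all tested genes, with a median of 0.91 (0.81 to 1.07 over the alternatives). The 8 were LIF, IL6, TIMP1, OSMR, ICAM1, VEGFA, FOS and MYC. All 8 are in other lists as well, LIF, IL6 and OSMR in that of the LIF and IL6 family, FOS and MYC in the AP-1 list, ICAM1 in the NF-kB list, TIMP1 in the protease list and VEGFA in the hypoxia list. By adjusted p alone 13 of the 22 were higher and 3 lower, against 8.45% and 5.26% of all tested genes.

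Regulators of the integrated stress response, the program that ATF4 drives when translation is curbed, were called higher in 9 of 22 tested members, against 3.37% of all tested genes. The median of the list was 0.75 (0.66 to 0.91 over the alternatives). GDF15, a secreted stress cytokine, lay at 25.4 and 23.3 CPM with vorinostat and 219 and 254 CPM with the combination (log2 fold change 3.28 ± 0.13 (SE), adjusted p = 5.80e-07). SESN2, an inhibitor of mTORC1 signalling, lay at 68.2 and 70.1 CPM with vorinostat and 422 and 405 CPM with the combination (log2 fold change 2.58 ± 0.11 (SE), adjusted p = 1.31e-06). DDIT3, encoding the factor CHOP, lay at 35.3 and 36.5 CPM with vorinostat and 167 and 150.2 CPM with the combination (log2 fold change 2.14 ± 0.10 (SE), adjusted p = 2.13e-06). In all 3 genes both combination libraries stood above both vorinostat libraries, and these groups did not overlap in 72.9% of all tested genes. Among 24 tested genes of amino acid synthesis and transport SLC38A1, a glutamine carrier, was called higher (1.59), and the median was 0.12 (0.03 to 0.28 over the alternatives). ATF5, another factor of the response, was called lower, at 16.2 and 17 CPM with vorinostat and 5.78 and 7.46 CPM with the combination (adjusted p = 0.00181), a call lost when any vorinostat or combination library was left out (adjusted p = 0.0106 to 0.0238).

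Chaperones of the endoplasmic reticulum moved little as a list, with 2 of 24 called higher, 1 lower and a median of 0.04. Of all tested genes 3.37% were called higher and 0.876% lower. HSPA5, the chaperone BiP, lay at 5696 and 5732 CPM with vorinostat and 12672 and 11544 CPM with the combination (log2 fold change 1.08 ± 0.077 (SE), adjusted p = 2.61e-05), and was under the fold threshold without combination replicate 1 (0.98), with total-count normalization (0.99) and with offsets for GC content and length (0.95). HSPA5 was called under 14 of the 18 alternatives, and its adjusted p reached 0.0169. In the metallothionein and zinc list, whose proteins bind zinc and copper, 3 of 6 tested members were called higher with a median of 1.76 (1.43 to 1.93 over the alternatives). MT2A lay at 487 and 472 CPM with vorinostat and 1827 and 2295 CPM with the combination (log2 fold change 2.10 ± 0.24 (SE), adjusted p = 0.000439). Its neighbour MT1X lay at 123 and 120.0 CPM with vorinostat and 413 and 629.5 CPM with the combination, a call lost when any vorinostat or combination library was left out (adjusted p = 0.0109 to 0.0285), and reads of these close copies may have been lost or shared. NRF2 targets showed no common shift in the median, at -0.03, with 5 of 28 (17.9%) called higher, against 3.37% of all tested genes. AKR1C1, a ketosteroid reductase with near-identical relatives, lay at 3.34 and 3.87 CPM with vorinostat and 31.2 and 24.4 CPM with the combination (log2 fold change 2.94 ± 0.21 (SE), adjusted p = 2.66e-05), and SQSTM1, encoding the autophagy receptor p62, at 770.4 and 769 CPM with vorinostat and 2147 and 2112 CPM with the combination (log2 fold change 1.47 ± 0.072 (SE), adjusted p = 2.55e-06).

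Genes of the glucocorticoid response were called higher in 5 of 17 (29.4%), against 3.37% of all tested genes, with a median of 0.78 (0.70 to 0.97 over the alternatives). ANGPTL4, a secreted inhibitor of lipoprotein lipase, lay at 149.8 and 156 CPM with vorinostat and 1522 and 1434 CPM with the combination (log2 fold change 3.27 ± 0.13 (SE), adjusted p = 7.75e-07). The glucose carrier SLC2A3 lay at 512 and 493 CPM with vorinostat and 1556 and 1549 CPM with the combination (log2 fold change 1.63 ± 0.078 (SE), adjusted p = 2.19e-06) and was 1 of 4 called higher among 30 glycolysis and hypoxia genes, whose median was -0.29 (-0.38 to -0.12 over the alternatives). VEGFA, the angiogenic growth factor, lay at 39.8 and 37.2 CPM with vorinostat and 88.4 and 94.2 CPM with the combination (log2 fold change 1.25 ± 0.12 (SE), adjusted p = 0.000186). In the glycolysis and hypoxia list the called members and the median thus went in opposite directions. Among 11 tested HDAC genes HDAC9, a class IIa member, was the call, at 5.4 and 7.06 CPM with vorinostat and 25.7 and 25.2 CPM with the combination (log2 fold change 2.02 ± 0.16 (SE), adjusted p = 4.67e-05).

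Cell death genes changed on both the protective and the sensitizing side. In the BCL2 family 2 of 18 tested members (11.1%) were called higher, against 3.37% of all tested genes, and the median was 0.24 (0.16 to 0.41 over the alternatives). BCL2A1, described above, is protective. PMAIP1, encoding the sensitizer NOXA, lay at 9.93 and 11.6 CPM with vorinostat and 22.2 and 26.1 CPM with the combination (adjusted p = 0.00102), a call lost without vorinostat replicate 1 or 2 or combination replicate 2 (adjusted p = 0.0143 to 0.0264). MCL1, a protective member, lay at 449 and 474 CPM with vorinostat and 939.8 and 880.2 CPM with the combination and passed the adjusted p with a log2 fold change of 0.98. BBC3, encoding the sensitizer PUMA, lay at 14.6 and 15.5 CPM with vorinostat and 23.8 and 27.5 CPM with the combination (0.77), and BNIP3L at 298 and 288 CPM with vorinostat and 484 and 495 CPM with the combination (0.74). These 3 passed the adjusted p alone. The other 13 did not, BCL2L1 at 81.8 and 78.5 CPM with vorinostat and 64.7 and 66 CPM with the combination (adjusted p = 0.0435), BCL2L11 at 50.3 and 53.8 CPM with vorinostat and 66 and 60.1 CPM with the combination (adjusted p = 0.168) and BAX at 74.1 and 80.9 CPM with vorinostat and 50.3 and 49.7 CPM with the combination (adjusted p = 0.0149) among them. Of 13 death receptors and adaptors 2 were called higher and 1 lower, against 3.37% and 0.876% of all tested genes. TNFRSF10B, the death receptor DR5 for TRAIL, lay at 222 and 223 CPM with vorinostat and 543 and 445 CPM with the combination (log2 fold change 1.15 ± 0.14 (SE), adjusted p = 0.000642), a call lost without vorinostat replicate 1 or 2 or combination replicate 1 (adjusted p = 0.0137 to 0.0158). TNFRSF12A, the TWEAK receptor, and the adaptor TRADD were called higher and lower, with log2 fold changes of 1.13 and -1.26, and both calls were lost when any vorinostat or combination library was left out (adjusted p = 0.0157 to 0.0667), that of TRADD also without a vehicle library.

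The 8 CDK inhibitor genes, brakes of the cell cycle, did not move together, and the median was -0.50 (-0.61 to -0.34 over the alternatives). CDKN2C, encoding p18, lay at 114 and 106 CPM with vorinostat and 35.5 and 36.5 CPM with the combination (log2 fold change -1.61 ± 0.091 (SE), adjusted p = 7.04e-06). CDKN1C, encoding p57, was called higher at 2.98 and 3.19 CPM with vorinostat and 13.1 and 11.4 CPM with the combination (adjusted p = 0.00654), a call lost when any vorinostat or combination library was left out (adjusted p = 0.0397 to 0.0794). CDKN1B, encoding p27, lay at 57.9 and 56.7 CPM with vorinostat and 41.7 and 39.7 CPM with the combination (log2 fold change -0.49 ± 0.091 (SE), adjusted p = 0.00443). CDKN1B and 2 others, CDKN1A (0.70) and CDKN2A (-0.79), passed the adjusted p and not the fold threshold. CDKN2B, CDKN2D and CDKN3 did not pass it, at -0.51, 0.43 and -0.62.

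Among genes with a mean log2 CPM of at least 3, those that fell most included regulators of lipid synthesis and of differentiation. SREBF1, the transcription factor of fatty acid and sterol synthesis, lay at 349.8 and 354 CPM with vehicle, 1462 and 1475 CPM with vorinostat and 301 and 308 CPM with the combination (log2 fold change -2.27 ± 0.09 (SE), adjusted p = 7.02e-07 against vorinostat). Its level was highest in the vorinostat libraries, and the combination libraries lay below the vehicle libraries. C19orf21 (MISP), which positions the mitotic spindle, lay at 18 and 17 CPM with vorinostat and 2.66 and 3.88 CPM with the combination (log2 fold change -2.42 ± 0.20 (SE), adjusted p = 6.45e-05). PDE7B, a phosphodiesterase of cAMP, lay at 13.8 and 14.6 CPM with vorinostat and 3.07 and 3.78 CPM with the combination (log2 fold change -2.05 ± 0.16 (SE), adjusted p = 4.55e-05). CFD, encoding complement factor D, lay at 39.9 and 40.2 CPM with vorinostat and 10.7 and 12.4 CPM with the combination (log2 fold change -1.80 ± 0.17 (SE), adjusted p = 0.000161). In none of these genes did a combination library reach the level of a vorinostat library, which their choice required. TWIST1, a transcription factor of the epithelial to mesenchymal transition, lay at 46.7 and 41.2 CPM with vorinostat and 13.5 and 15.4 CPM with the combination (log2 fold change -1.60 ± 0.14 (SE), adjusted p = 7.72e-05). The call of HIST1H3H, a histone H3 gene at 27.4 and 27 CPM with vorinostat and 7.78 and 7.56 CPM with the combination, was lost when any vehicle, vorinostat or combination library was left out (adjusted p = 0.0112 to 0.054). With scaling to the ribosomal protein genes 10 genes in all were called lower, and the calls of TWIST1, IER5L, PARP9, FSTL1, PADI3 and HIST1H3H were lost by adjusted p and not by size, at log2 fold changes of -1.66 to -1.33.

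**Figure D3:**
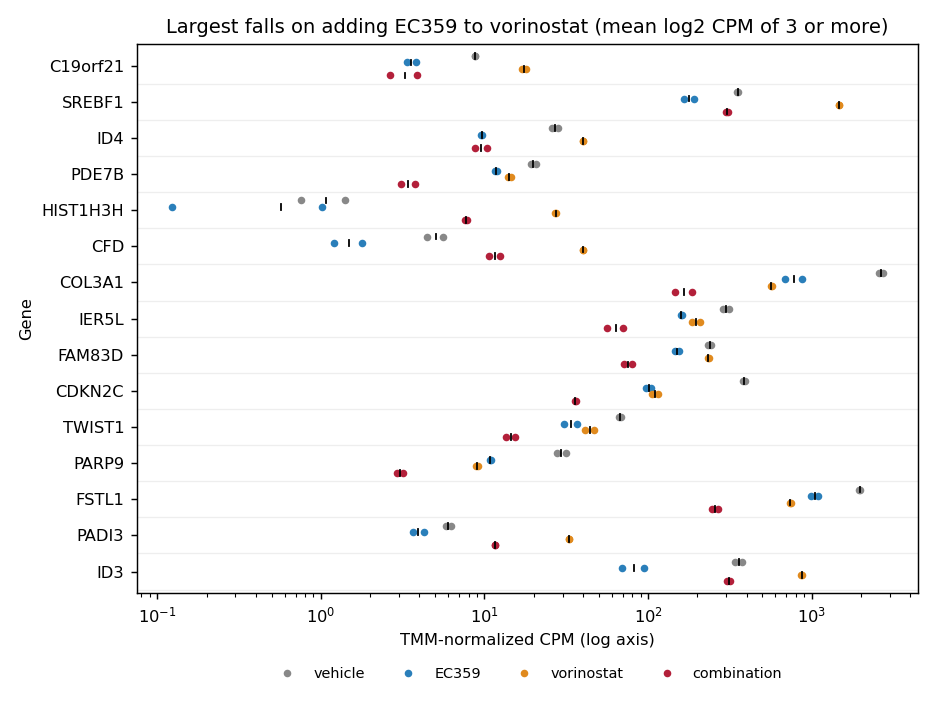
TMM-normalized CPM (log axis) of the 15 genes with the largest fall among those called lower with a mean log2 CPM of at least 3. Points are the 2 libraries of each group and black ticks the group means. Both combination libraries (red) lie below both vorinostat libraries (orange) for every gene, which the choice of genes required. C19orf21, SREBF1, ID4, HIST1H3H, CFD, PADI3 and ID3 are highest with vorinostat alone.

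ID proteins block the DNA binding of basic helix-loop-helix factors and are direct targets of BMP signalling. ID4 lay at 40.1 and 39.7 CPM with vorinostat and 8.8 and 10.4 CPM with the combination (log2 fold change -2.06 ± 0.13 (SE), adjusted p = 1.75e-05). ID3 lay at 872 and 865 CPM with vorinostat and 304 and 318 CPM with the combination (log2 fold change -1.48 ± 0.14 (SE), adjusted p = 0.000116), and ID2 at 431 and 408 CPM with vorinostat and 209 and 203 CPM with the combination (log2 fold change -1.03 ± 0.10 (SE), adjusted p = 0.000128). ID1 lay at 490.3 and 479 CPM with vorinostat and 309 and 309 CPM with the combination and passed the adjusted p but not the fold threshold (log2 fold change -0.65 ± 0.12 (SE), adjusted p = 0.00468). All 4 ID genes were thus lower in both combination libraries than in both vorinostat libraries. These groups did not overlap in 72.9% of all tested genes. Of 19 tested ID genes and BMP targets 4 were called lower and 1 higher, against 0.876% and 3.37% of all tested genes. The median was -0.45 (-0.62 to -0.12 over the alternatives). The fourth lower member, SMAD9, a signal transducer of BMP, lay at 9.46 and 8.97 CPM with vorinostat and 4.04 and 4.9 CPM with the combination, and the higher member, HES1, a Notch target, at 10.5 and 11 CPM with vorinostat and 21 and 30.3 CPM with the combination. The SMAD9 call was lost when any vehicle, vorinostat or combination library was left out and that of HES1 without vorinostat replicate 1 or 2 or combination replicate 2 (adjusted p = 0.0137 to 0.0492).

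Genes for 2 fibrillar collagen chains fell. COL3A1 lay at 2586 and 2724 CPM with vehicle, 567 and 568 CPM with vorinostat and 185 and 147 CPM with the combination (log2 fold change -1.77 ± 0.14 (SE), adjusted p = 4.44e-05 against vorinostat). COL1A2 lay at 2611 and 2668 CPM with vorinostat and 1256 and 1105 CPM with the combination (log2 fold change -1.16 ± 0.11 (SE), adjusted p = 0.000123). They were the 2 called of 19 tested collagen genes, where 0.876% of all tested genes were called lower. The median was -0.13, with either sign over the alternatives. SPARC, a collagen-binding matrix protein and marker of the line, lay at 1923 and 1906 CPM with vorinostat and 912 and 903 CPM with the combination (log2 fold change -1.08 ± 0.068 (SE), adjusted p = 1.42e-05), and FSTL1, a secreted glycoprotein, at 731 and 749 CPM with vorinostat and 266 and 246 CPM with the combination (log2 fold change -1.53 ± 0.084 (SE), adjusted p = 5.81e-06).

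Among mitotic genes the median was below 0 and 3 genes fell. Of 54 tested G2 and mitosis genes 3 (5.56%) were called lower, against 0.876% of all tested genes. By adjusted p alone 18 were lower, against 5.26% of all tested genes. The median was -0.41 (-0.50 to -0.25 over the alternatives). KIF20A, a kinesin of cytokinesis, lay at 174 and 172 CPM with vorinostat and 68.7 and 65.8 CPM with the combination (log2 fold change -1.36 ± 0.095 (SE), adjusted p = 2.34e-05). CCNB2, a mitotic cyclin, lay at 52.4 and 52.4 CPM with vorinostat and 25.5 and 22.1 CPM with the combination (log2 fold change -1.14 ± 0.11 (SE), adjusted p = 0.000163). CCNB1 lay at 257 and 249 CPM with vorinostat and 143 and 108 CPM with the combination, a call lost without vorinostat replicate 1 or 2 or combination replicate 2 (adjusted p = 0.0164 to 0.0196). FAM83D, a spindle protein outside the list, lay at 233 and 234 CPM with vorinostat and 79.2 and 70.8 CPM with the combination (log2 fold change -1.64 ± 0.094 (SE), adjusted p = 7.37e-06). DNA replication genes had a median of -0.0045 over 48 members, with 0 calls by edgeR and 1 lower call by DESeq2. Of these, 10 were higher and 11 lower at an unadjusted p under 0.05, which 5552 of all 13694 tested genes reached.

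The medians of several metabolic lists were below 0, with few calls. Respiratory chain subunits had a median of -0.50 (-0.59 to -0.35 over the alternatives). Of 56 tested, 0 were called by edgeR, 11 were lower by adjusted p alone, 43 were lower at an unadjusted p under 0.05, and 1 was called lower by DESeq2. For all the lists here, 5552 of 13694 tested genes had an unadjusted p under 0.05 in either direction. By adjusted p alone 5.26% of all tested genes were lower and 8.45% higher. Fatty acid synthesis genes had a median of -0.45 (-0.54 to -0.28 over the alternatives), with SREBF1 as the call and 8 of 17 lower by adjusted p alone. Of 24 cholesterol genes LSS, lanosterol synthase, was called lower (-1.16). The median of that list was -0.03. Genes of ribosome biogenesis went the other way, with a median of 0.31 (0.22 to 0.48 over the alternatives). Of 30 tested, 0 were called by edgeR or DESeq2, 8 were higher by adjusted p alone, and 15 were higher and 1 lower at an unadjusted p under 0.05. Cytosolic ribosomal proteins had a median of -0.16. Of these 76 members 0 were called by either tool and 2 were higher and 3 lower at an unadjusted p under 0.05.

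The remaining lists held few calls, where 3.37% of all tested genes were called higher and 0.876% lower. Heat shock genes had a median of -0.27 and cytosolic aminoacyl-tRNA synthetases of 0.001. Both held 0 calls by edgeR and by DESeq2. At an unadjusted p under 0.05 there were 3 higher and 8 lower heat shock genes of 18, and 4 higher and 6 lower synthetase genes of 21. That p was reached by 5552 of all 13694 tested genes. Of 32 interferon-stimulated genes 1 was called higher and 1 lower, the latter BST2, a membrane protein that tethers virus particles. BST2 lay at 16.2 and 13.9 CPM with vorinostat and 7.68 and 5.92 CPM with the combination, a call lost when any vehicle, vorinostat or combination library was left out (adjusted p = 0.0149 to 0.0813). p53 targets outside the stress response held 3 higher calls among 22, PLK3 (2.36) and AEN (2.07) among them, and the median was 0.07. Of 13 factors and cadherins of the epithelial to mesenchymal transition, FN1 was called higher and TWIST1 lower.

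**Figure D4:**
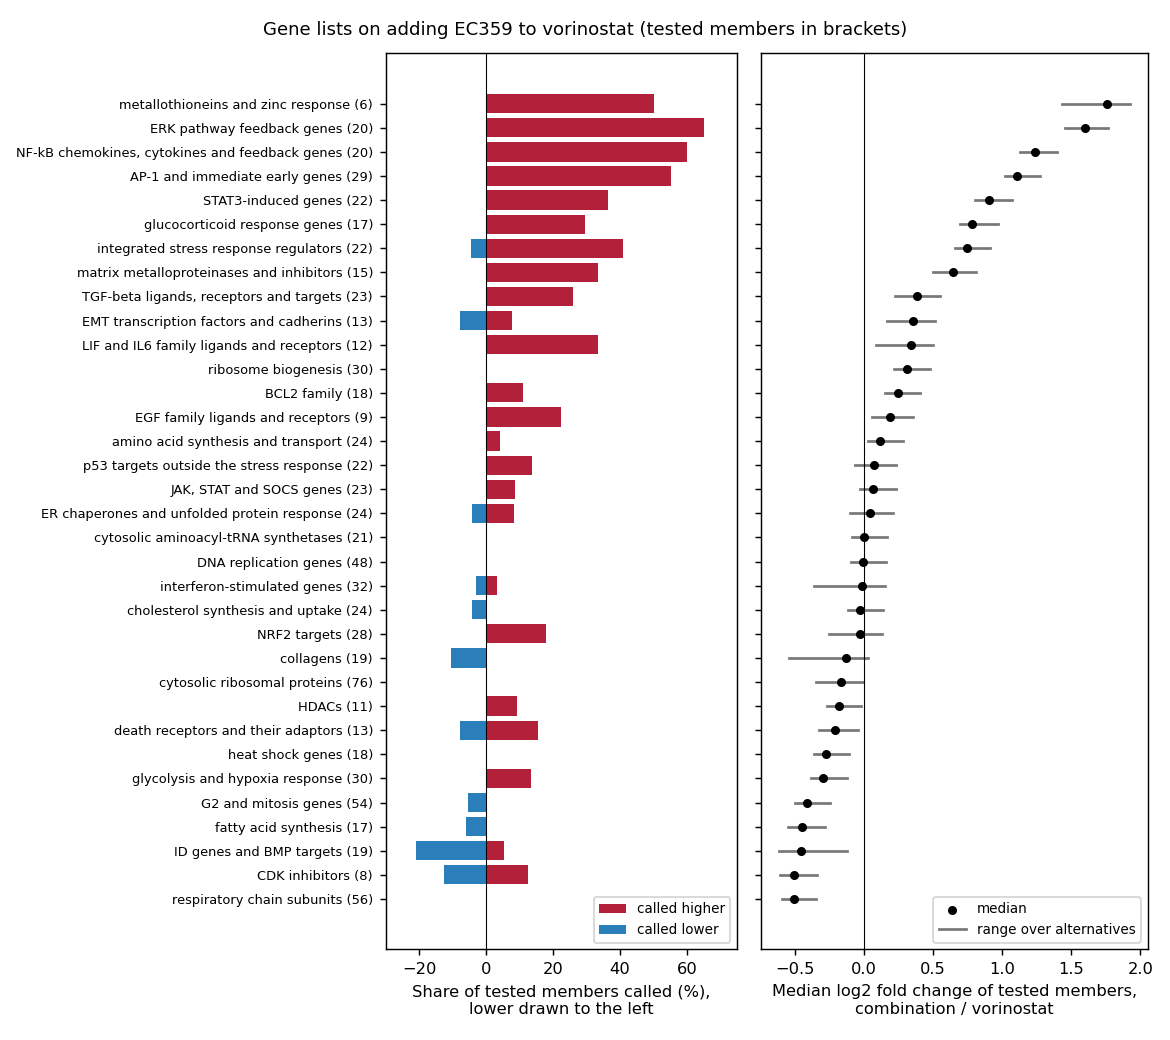
For each gene list, the share of tested members called higher (red, to the right) and lower (blue, to the left) in percent, and the median log2 fold change between combination and vorinostat (points) with its range over the alternatives (grey lines). The number of tested members stands in brackets. Metallothionein, ERK feedback, NF-kB and AP-1 lists have medians above 1, and respiratory chain, CDK inhibitor and ID lists are at the lower end.

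EC359 was also compared with vehicle, on the other 4 libraries of the common fit, which add to the estimate of spread in the comparison above, to ask how its effect differed without HDAC inhibition. It changed 502 genes (3.67%), 266 higher (1.94%) and 236 lower (1.72%). The genes called higher in both backgrounds numbered 124, which is 26.8% of those with vorinostat and 46.6% of those without. The genes called lower in both numbered 30, or 25% and 12.7%. A further 7 genes were higher with vorinostat and lower without it. Of the 462 genes called higher with vorinostat, 84% had a positive difference without it, and of the 120 called lower 97.5% had a negative one, against 69.2% of all tested genes with the same sign. Across the 13694 genes the log2 fold changes of both backgrounds had a Pearson r of 0.29 and a Spearman rho of 0.46, where genes are not independent.

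The difference between both effects of EC359 was tested as an interaction, with an adjusted p under 0.01. It was passed by 288 genes (2.1%), 222 with a larger value with vorinostat (1.62%) and 66 with a smaller (0.482%). Of the 462 genes called higher with vorinostat, 100 had a larger effect and 2 a smaller. Of the 120 called lower, 6 had a smaller value and 2 a larger. Both sets were chosen by the fold change with vorinostat, which enters the interaction, so the choice favoured these directions. The count of 288 depended on the scaling and on single libraries. With scaling to the ribosomal protein genes 0 genes passed by edgeR, where 1036 had an unadjusted p under 0.05, with the replicate block 189 passed, and with DESeq2 713. The count was 56 to 71 without any 1 vehicle, vorinostat or combination library, and 1420 and 1437 without EC359 replicate 1 and 2. EC359 replicates differed more from each other than those of other groups, with an SD of the log2 difference across genes of 0.56 against 0.31 to 0.45.

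Some genes went in opposite directions with and without vorinostat. EPHA4, an ephrin receptor, lay at 89.3 and 80.3 CPM with vehicle and 24.6 and 21.5 CPM with EC359, but at 25 and 27.1 CPM with vorinostat and 72.2 and 74.2 CPM with the combination (interaction 3.37 ± 0.16 (SE), adjusted p = 2.30e-05). CXCR7, an atypical receptor for CXCL12, lay at 23.9 and 25.6 CPM with vehicle and 5.28 and 5.22 CPM with EC359, and at 7.2 and 7.18 CPM with vorinostat and 16 and 16.3 CPM with the combination (interaction 3.40 ± 0.19 (SE), adjusted p = 5.95e-05). FOXC1, a forkhead factor of basal-like breast cancer, lay at 162 and 153 CPM with vehicle and 78.4 and 50.5 CPM with EC359, and at 23.6 and 22.3 CPM with vorinostat and 70 and 100.5 CPM with the combination (interaction 3.18 ± 0.31 (SE), adjusted p = 0.000707). For these 3 genes EC359 was lower than vehicle and the combination higher than vorinostat. Their interaction stayed past the threshold whichever library was left out, though not with scaling to the ribosomal protein genes, where none passed. Without vorinostat replicate 1 or 2 the rise of CXCR7 over vorinostat was no longer called (adjusted p = 0.0144 and 0.0143), and without vorinostat replicate 2 that of FOXC1 (adjusted p = 0.0113).

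Other genes had positive fold changes with and without vorinostat that differed in size. TIMP1 did not pass the test without vorinostat (adjusted p = 0.0146), whereas INHBA and IL6 rose in both. TIMP1 had log2 fold changes of 2.79 with and 0.36 without vorinostat (interaction adjusted p = 2.30e-05), INHBA of 4.04 and 1.13 (0.000123), and IL6 of 3.32 and 1.31 (0.00041). Of the 13 ERK feedback genes called higher, IL8 passed the interaction test (1.59) and the other 12 did not, among them DUSP6 at 4.49 and 4.32 (interaction 0.17 ± 0.21 (SE), adjusted p = 0.7) and ETV5 at 2.99 and 2.82 (interaction 0.17 ± 0.14 (SE), adjusted p = 0.517). BCL2A1 rose by 5.82 and 5.38 (interaction 0.44 ± 0.37 (SE), adjusted p = 0.617). An interaction that misses the threshold does not show that the effects were equal. FZD8, a WNT receptor, rose by 1.76 with and 2.92 without vorinostat, a smaller rise (interaction adjusted p = 0.0087). ARRDC3, an arrestin-like protein, had log2 fold changes of -1.27 with vorinostat and 0.0017 without it (interaction adjusted p = 0.00188). The FZD8 and ARRDC3 interactions, unlike those of TIMP1, INHBA and IL6, were lost when any vehicle, vorinostat or combination library was left out, with adjusted p up to 0.0637 and 0.0212.

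**Figure D5:**
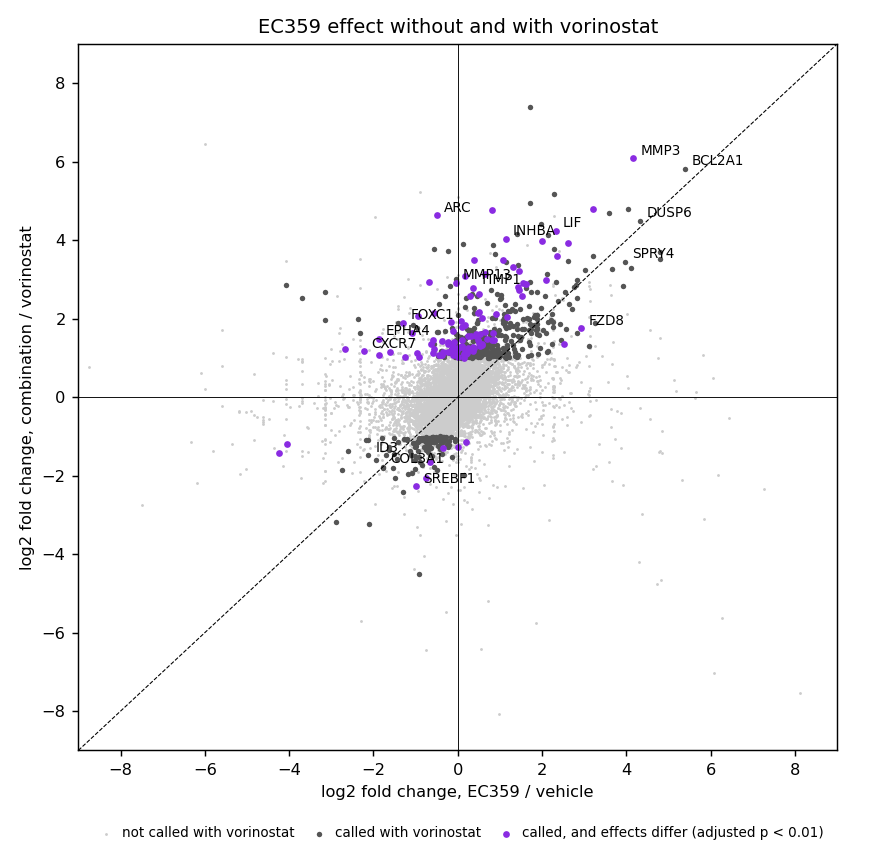
Each point is a tested gene, with the log2 fold change of EC359 over vehicle (horizontal) against that of combination over vorinostat (vertical), and the dashed line marks equal effects. Dark points are called with vorinostat, and purple points also passed the interaction test. TIMP1 and INHBA lie above the line, DUSP6 and BCL2A1 near it, and EPHA4, CXCR7 and FOXC1 in the upper left.

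Several named genes share part of their position with a gene on the opposite strand in GENCODE on GRCh37, and whether the counting used strand is not stated. They include MAFF (with PLA2G6), HAS3 (CHTF8), IL6 (STEAP1B), SREBF1 (RAI1), OSMR (RICTOR), TIMP1 (SYN1), DDIT3 (MBD6) and SQSTM1 (MGAT4B). The overlap is of whole gene bodies, and whether reads were mixed with or lost to those of the partner was not tested. Such an overlap was found for 87 of the 462 higher and 31 of the 120 lower genes, against 3774 of 13694 tested. Genes called higher had longer transcripts and those called lower a higher GC content than the rest, with median lengths of 4294 and 3121 bases against 3878, and median GC contents of 47.1% and 55.3% against 47.9%. With offsets for GC content and length the counts were 420 higher and 129 lower.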

How the data were processed

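RNA was sequenced from BT-549 cells in 8 libraries, 2 per group. Per the labels and the study's methods, reads were single-end and 50 bp long, TopHat2 2.0.8b placed them on hg19, and HTSeq assigned them to RefSeq genes. The authors deposited the raw counts, by gene symbol and library, and the HTSeq version and strand setting are not given in the sources used here. The 5 HTSeq summary lines were left out, among them reads outside genes (11% to 14.2% of unique reads).

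Genes were kept by filterByExpr in edgeR 4.0.16 (R 4.3.3), scaled by TMM and tested by quasi-likelihood, with the 4 groups in a common fit and Benjamini-Hochberg adjustment over 13694 genes. A call needed an adjusted p under 0.01 and a log2 fold change beyond 1 either way, and an interaction the adjusted p only. The SE was derived from the fold change and its F statistic. CPM values are TMM-normalized. The libraries of a group differed by more than counting noise, so none was taken as a repeat of another.

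Gene lists came from general knowledge, and the members and lists were chosen with earlier results of these data known. Named genes are the 15 called genes that changed most in each direction (mean log2 CPM of at least 3, libraries of the groups not overlapping), up to 4 called members of each list and direction, all members of the LIF, JAK, CDK inhibitor and BCL2 lists and the ID genes, and the 5 largest interactions each way among called genes. Promoters came from RefSeq (GRCh38.p14), matched by symbol for 10559 genes. On simulated counts of 13694 genes for this comparison, 96% of changes of 1.5 and 98% to 100% of larger ones were recovered, with 3 false calls. The changes were set in random directions, only in genes above the lowest levels, with a common trend of spread for all groups. The simulation thus does not cover rare genes, the larger spread of the EC359 libraries or a skew in scaling. Alternatives were other normalizations (RLE, total counts, ribosomal protein genes), filters and thresholds, a replicate block, GC and length offsets, a fit on 4 libraries, DESeq2 1.42.0 and leaving out each library. Some list members that enter the counts are not reported by name here. A block with crossed numbers was added after seeing the data. Figures were drawn with matplotlib 3.10.9.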

Additional observations from a re-analysis of the deposited data

Results flagged for a closer look

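The effect of EC359 differed with and without vorinostat, by the interaction test at an adjusted p under 0.01, in 38 of the 148 named genes. Values are the log2 fold change with vorinostat minus that without. Many of the named genes were chosen by their change with vorinostat, which enters this difference. In 14 of the 38 the difference passed the threshold whichever library was left out. With scaling to the ribosomal protein genes none of the 38 passed. The 14 were CXCR7 (3.40), EPHA4 (3.37), FOXC1 (3.18), SBSN (3.10), INHBA (2.91), EMP1 (2.43), TIMP1 (2.43), IL6 (2.00), MAFF (2.00), LIF (1.92), DDIT3 (1.66), IL8 (1.59) and HSPA5 (1.46), with a larger value with vorinostat, and CDKN1A (-1.88) with a smaller one. The smaller value of CDKN1A, encoding the CDK inhibitor p21, came with a level of 288 and 291 CPM with vorinostat alone against 7.13 and 7.43 CPM with vehicle. HSPA5, the chaperone BiP, was called higher on adding EC359 to vorinostat and had a negative log2 fold change for EC359 against vehicle (-0.38, adjusted p = 0.0099).

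In the other 24 the difference missed the threshold when 1 or more libraries were left out. Those with a larger value with vorinostat were ARC (5.14), MMP13 (2.96), MMP3 (1.93), NRG1 (1.66), SOCS3 (1.43), HAS3 (1.32), FN1 (1.30), PMEPA1 (1.30), LIFR (1.29), CXCL3 (1.22), SESN2 (1.05), HBEGF (1.01), IL6ST (0.98), GADD45A (0.87), SLC2A3 (0.79), CDKN1B (0.78) and SQSTM1 (0.61). Those with a smaller value were BCL2L1 (-0.84), FAM83D (-0.98), FZD8 (-1.17), ARRDC3 (-1.27), SREBF1 (-1.29), PDE7B (-1.30) and NADKD1 (-1.34). For ARC the adjusted p ranged from 0.000246 to 0.157 over the libraries left out, and its vehicle and EC359 libraries were below 1 CPM.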

How the results depend on the processing

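No gene called on adding EC359 to vorinostat changed sign under any alternative, and 69 of the 97 named calls held whichever library was left out. The total of 582 calls became 194 (184 higher, 10 lower) with scaling to ribosomal protein genes, and 1877 (1157 and 720) with no fold threshold. It was 285 to 730 with a library left out, 225 to 537 higher and 60 to 193 lower. The 120 lower calls became 182 with total-count normalization, 181 with no low-count filter and 212 at an adjusted p under 0.05. With scaling to ribosomal protein genes 40 of the 97 named calls were lost. The calls of IL6ST, CD44, FN1, VEGFA, ID2, KIF20A, CCNB2, COL1A2, SPARC and LSS were each lost under 1 or more alternatives other than leaving out a library, with adjusted p up to 0.117 (ID2). The 502 genes of EC359 against vehicle became 202 with ribosomal protein scaling, 233 on 4 libraries and 1071 with no fold threshold, and ranged from 298 to 924 with a library left out. The 288 interactions became 925 at an adjusted p under 0.05, 713 with DESeq2, and 0 by edgeR with ribosomal protein scaling, where 1036 had an unadjusted p under 0.05. They ranged from 56 to 1437 with a library left out. Where a group was reduced to 1 library, that library is assumed to vary like the other groups.

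A replicate block, from the numbers in the labels, gave 557 genes on adding EC359 to vorinostat (442 higher, 115 lower), 471 on adding it to vehicle and 189 interactions. Deviations of same-numbered libraries correlated at -0.17 to 0.23 over the 6 pairs of groups. Such correlations cannot decide whether libraries of the same number shared a batch or culture. With the combination numbers crossed the counts were 644, 547 and 477. DESeq2 gave 448 higher and 172 lower calls.

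Among genes that were not called, 3 turned sign. CNTFR turned to 0.1769 with GC and length offsets and 0.1683 with ribosomal protein scaling, and ranged from -0.5175 to 0.304 with a library left out. CLCF1 turned to 0.008 and 0.0144 with the same settings, and ranged from -0.5206 to 0.0937. IL11 ranged from -0.0464 to 0.7976 with a library left out. The causes were not tested. Among low-count genes such as these, depth limits what can be shown.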

Other observations

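EGR3, RASD1 and CDKN1C were rare without vorinostat and rose on adding EC359 to it. EGR3 lay at 0.378 and 0.234 CPM with vehicle, 0.206 and 0.203 CPM with EC359, 1.54 and 2.68 CPM with vorinostat and 25.3 and 33.4 CPM with the combination. RASD1, a RAS-like protein induced by glucocorticoids, lay at 0.142 and 0.42 CPM with vehicle, 0.247 and 0.203 CPM with EC359, 2.21 and 1.87 CPM with vorinostat and 11.6 and 12.9 CPM with the combination, a call lost without vorinostat replicate 2 (adjusted p = 0.0103). In CDKN1C the log2 fold change was 1.99 with and -2.36 without vorinostat, and the interaction did not pass the threshold (adjusted p = 0.0552). AEN, a nuclease induced by p53, lay at 22.4 and 28.3 CPM with vehicle, 47.4 and 64.1 CPM with EC359, 15.6 and 16 CPM with vorinostat and 72.7 and 60.2 CPM with the combination (log2 fold change 2.07 ± 0.18 (SE), adjusted p = 9.31e-05 against vorinostat).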
